A study of Mus musculus with 3 samples.

Results

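Lysosomal hydrolases and membrane genes were followed in cultured mouse melanocytes carrying an NRAS oncogene. The list held 41 gene symbols, namely 9 cathepsins and other peptidases, 11 glycosidases, 5 sulfatases, 6 genes of lipid breakdown, 8 membrane proteins and the transcription factors Tfeb and Tfe3. Every probe set whose only gene symbol was one of the 41 was taken, without regard to its values. This gave 89 probe sets of 40 genes, out of 34958 probe sets of 18194 genes with a single name. Cd63, a tetraspanin of late endosomes, had no probe set under that name alone.

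RNA came from melan-a NRAS61K cells treated with doxycycline at 1 µg/ml for 6, 14 or 28 days and was measured on Affymetrix arrays, with 1 array per time point. All 3 cultures thus share the NRAS61K oncogene and the drug, and they differ in the length of treatment. The line was grown in DMEM with dialyzed serum. The series title concerns highly tumorigenic cells that arise from cells made senescent by N-RAS61K, and the time course follows expression over the treatment. The labels say neither what doxycycline controls in this line nor whether the line is 1 clone. Of the 4 samples counted in the series text, 3 were analysed here. They include no untreated array, so day 6 served as the reference and is itself a treated state. A single array per day gives no spread between cultures, and differences between days are therefore described without a test.

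Lysosomes are acidic organelles in which hydrolases take apart proteins, glycans, glycosaminoglycans and lipids delivered by endocytosis and autophagy. Many of their genes carry an E-box of the CLEAR type near the start site, which is bound by the MiT/TFE factors TFEB, TFE3, TFEC and MITF. Melanosomes, the pigment organelles of melanocytes, are related to lysosomes, and MITF is the lineage factor of these cells.

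The deposited values, read here as log2, were already forced to the same distribution on each array, so each difference below is relative to the other genes of the same array. A gene was read from its probe set with the highest mean, and a gene counted as above background when it exceeded the 90th percentile of a silent set, 121 probe sets of 77 genes not used by pigment cells (22.74, 22.58 and 22.77 at days 6, 14 and 28). By this measure 11285 to 11535 of the 18194 genes were above background. Read in the same way, from the brightest probe set, 12 of the 77 silent genes were above it on each array. Among 19 melanocyte markers, 13, 14 and 12 were above background at the 3 days, while Tyr, Kit, Trpm1 and Slc24a4 were below it on every array. The 3' minus 5' log2 difference of Actb, a measure of RNA integrity, was 0.58, 0.76 and 0.75 at days 6, 14 and 28. That of Gapdh was -0.24, -0.10 and -0.09, and the mean of the poly-A controls was 23.96, 24.19 and 24.41. All of these were lowest on the day 6 array, and their part in the results was not tested.

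Most lysosomal genes were higher at day 14 than at day 6. Of the 40 genes, 37 were above background on at least 1 of these arrays, and 34 of the 37 had a higher value at day 14, against 47.4% of the 11838 genes described in the same way. The median log2 difference was 0.52 for the lysosomal genes and -0.03 for all genes. The size of the difference was moderate for most members. At least 1.5-fold higher were 17 members, against 13.5% of all genes, and none was 1.5-fold lower, against 14.3%. At least 2-fold higher were 4 members, namely Sgsh, Gaa, Man2b1 and Idua, against 5.47% of all genes, and none was 2-fold lower, against 3.90%. In bulk RNA, fewer cells of a type and less RNA per cell cannot be told apart.

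The difference from day 6 was still present at day 28. Again 37 members were described and 34 of them were higher than at day 6, against 50.7% of 11751 genes, with a median of 0.51 beside 0.01 for all genes. At 1.5-fold, 14 members were higher, against 15.8% of all genes, and 1, Gla, was lower, against 12.2%. At 2-fold, Sgsh, Naglu and Gaa were higher, against 6.59%, and none was lower, against 4.03%. At 2-fold the share of members was thus near that of all genes, whereas at 1.5-fold and by any amount it was above that share. Both comparisons use the same day 6 array, so a peculiarity of that array would enter both.

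Between day 14 and day 28 the members differed little. Of 36 members described, 12 were higher at day 28, against 54.6% of 11796 genes, and the median was -0.12 beside 0.03 for all genes. None was 1.5-fold higher, against 7.61%, or 2-fold higher, against 2.21%. Sgsh alone was 1.5-fold lower, against 4.40% of all genes, and it was also the only member 2-fold lower, against 1.45%. Over the 36 members above background on all arrays, the lowest value was that of day 6 in 33, and the exceptions were Gla, Gusb and Tfe3. The highest value was that of day 14 in 22 members, of day 28 in 12 and of day 6 in Gla. Ctsl had the same highest value at days 14 and 28. Lysosomal genes include many of high signal, so the most strongly expressed genes were also examined. Among all 986 genes with a mean log2 value of at least 28, the median difference was 0.01 for both days against day 6, and 50.9% were higher at day 14 and 50.2% at day 28.

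**Figure D1:**
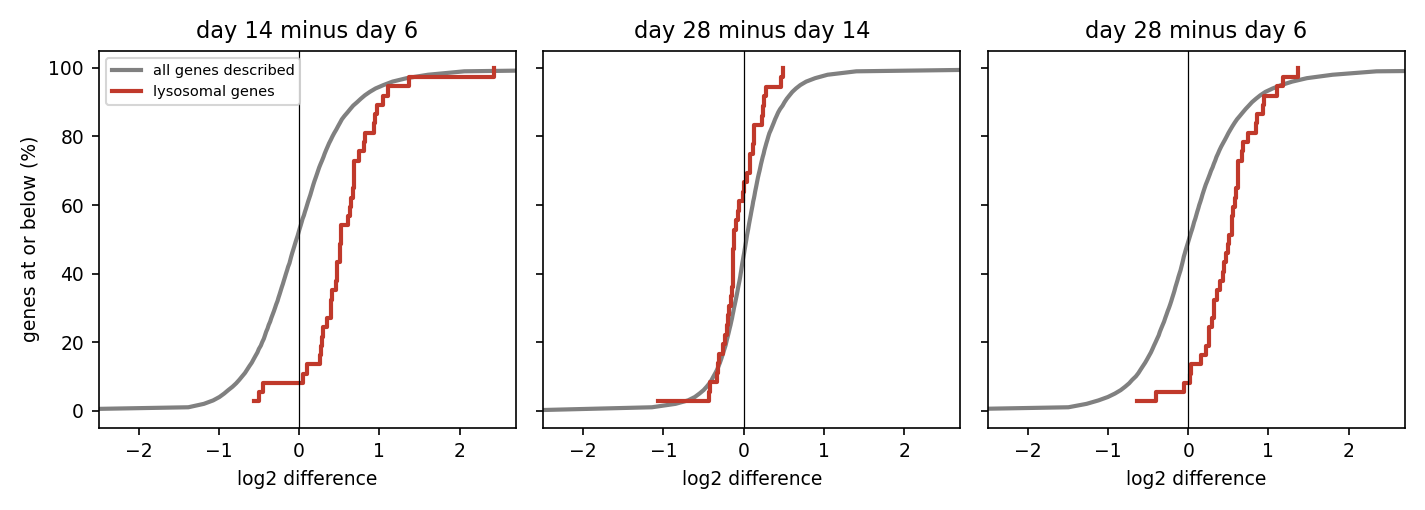
Cumulative share of genes (y axis, %) at or below each log2 difference (x axis) for the lysosomal genes in red and all genes described in grey, in 3 comparisons of 1 array each. Against day 6 the red line lies to the right of the grey one, with medians of 0.52 and 0.51, and from day 14 to day 28 it lies slightly to the left over much of its course, with a median of -0.12.

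The start regions of these genes are shown first because the E-box named above is common in them. RefSeq windows of assembly GRCm38.p6, from 250 bases before to 50 after the start, were matched by symbol for 34 of the 40 genes. Ctsb, Ctsh, Galns, Asah1, Laptm4b and Npc1 had no entry. A gene with several windows counted once, if any of them held the match. The core CACGTG, which reads the same on both strands, was found in 12 of the 34 genes (35.3%). This compares with 8.09% of the 27025 genes in the set. The longer element GTCACGTG or its reverse complement CACGTGAC, which contains the core, was found in 10 (29.4%), compared with 2.55%. Ctsl and Gaa held the core alone, and Arsa, Cln3, Ctsa, Ctsd, Gla, Glb1, Lamp1, Mcoln1, Naglu and Sgsh held the longer element. The following stretches, 5′ to 3′ along the gene and ending before its start site, come from 5 members that were higher at both later days and from 2 that were not or hardly so, Gla and Mcoln1. Capitals mark the core, with the flanking bases where the longer element matched.
Sgsh: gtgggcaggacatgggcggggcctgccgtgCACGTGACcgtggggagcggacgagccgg
Gaa: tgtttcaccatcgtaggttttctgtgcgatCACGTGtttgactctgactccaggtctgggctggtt
Naglu: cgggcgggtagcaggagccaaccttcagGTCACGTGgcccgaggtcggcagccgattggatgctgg
Glb1: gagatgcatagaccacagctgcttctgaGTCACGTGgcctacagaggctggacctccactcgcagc
Arsa: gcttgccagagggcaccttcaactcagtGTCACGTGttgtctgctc
Gla: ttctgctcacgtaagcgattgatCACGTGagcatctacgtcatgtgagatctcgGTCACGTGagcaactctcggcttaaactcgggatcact
Mcoln1: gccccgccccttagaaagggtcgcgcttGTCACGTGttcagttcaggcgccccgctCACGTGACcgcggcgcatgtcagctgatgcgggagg

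These stretches lie at chr11:119355511-119355569 (minus strand) for Sgsh, chr11:119267793-119267858 (plus strand) for Gaa, chr11:101069991-101070056 (plus strand) for Naglu. The others lie at chr9:114401000-114401065 (plus strand) for Glb1, chr15:89477425-89477470 (minus strand) for Arsa, chrX:134601164-134601255 (minus strand) for Gla and chr8:3500418-3500509 (plus strand) for Mcoln1. The core began 29 bases before the start in Sgsh, 16 before it in Arsa, 48 in Glb1, 73 in Naglu and 140 in Gaa. Gla and Mcoln1 each held 2 cores, at 227 and 194 bases in Gla and at 71 and 45 in Mcoln1. Differences of members with the core overlapped those of members without it. At day 14 the median log2 difference was 0.68 for the 11 members with the core that were above background on all arrays. It was 0.51 for the 20 such members without the core, and the ranges overlapped (-0.50 to 2.43 and -0.45 to 1.11). At day 28 the medians were 0.60 and 0.54, with ranges of -0.64 to 1.37 and -0.05 to 0.95. Cln3, which holds the core, was above background at day 6 alone and is left out of these medians and ranges. Its log2 difference from day 6 was -0.47 or lower at day 14 and -0.28 or lower at day 28. Sgsh, Naglu and Gaa, the members 2-fold higher at day 28, all held the core. Idua and Man2b1, both 2-fold higher at day 14, held no match in this window. A match is a description of letters and does not show binding.

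The largest difference among all members was that of Sgsh, the sulfohydrolase that removes sulfate from glucosamine of heparan sulfate. The log2 values of Sgsh were 23.67, 26.10 and 25.04 at days 6, 14 and 28. This is 5.39-fold higher at day 14 and 2.58-fold higher at day 28 than at day 6, with day 28 between the other days. A second Sgsh probe set lay close to background (22.57, 22.82 and 22.23) and did not show this pattern, so the Sgsh result rests on 1 probe set. Averaged over both, the log2 difference from day 6 was 1.34 at day 14 and 0.51 at day 28.

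The other 4 sulfatases were also higher at both later days, and the median over the 5 was 0.75 at day 14 and 0.84 at day 28. Arsa, which desulfates sulfatide, had values of 27.09, 28.07 and 27.94, or 1.96-fold and 1.79-fold above day 6. Ids, which acts on iduronate sulfate of heparan and dermatan sulfate, had 26.33, 27.08 and 27.20, or 1.68-fold and 1.82-fold. Of the 6 Ids probe sets, 1 was above background on all arrays, so the Ids values rest on that one. Arsa and Ids both reached most of their difference by day 14. Arsb, the sulfatase of dermatan sulfate, was 1.32-fold higher at day 14 and 1.12-fold at day 28 (28.28, 28.68 and 28.45). Galns, the sulfatase of keratan sulfate, was 1.21-fold and then 1.41-fold higher (25.57, 25.84 and 26.07).

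Glycosidases remove sugars one by one, and 10 of the 11 were higher at day 14 than at day 6 and 9 of 11 at day 28, with medians of 0.82 and 0.62. Gaa, which degrades glycogen, had log2 values of 26.84, 28.21 and 27.95. It was 2.58-fold higher at day 14 and 2.16-fold at day 28, and both of its probe sets gave log2 differences of 1.37 and 1.11. Naglu, which removes N-acetylglucosamine from heparan sulfate, had 26.36, 27.30 and 27.54, 1.92-fold and then 2.26-fold above day 6. Naglu thus had its highest value at day 28, unlike Gaa. Idua, the iduronidase of heparan and dermatan sulfate, had 24.25, 25.29 and 24.87, 2.07-fold and 1.54-fold above day 6. Man2b1, an alpha-mannosidase of glycoprotein glycans, had 27.61, 28.72 and 28.28, 2.15-fold and 1.59-fold. For both of these the day 14 array was the highest. The second Man2b1 probe set gave smaller log2 differences, 0.78 at day 14 and 0.09 at day 28. Averaged over their probe sets, Man2b1 (0.94) and Idua (0.87) were no longer 2-fold higher at day 14.

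Further glycosidases lay below the 2-fold line. Hexa, a subunit of the beta-hexosaminidase that degrades ganglioside GM2, was 1.91-fold higher at day 14 and 1.53-fold at day 28 (28.73, 29.66 and 29.35). Glb1, the beta-galactosidase whose activity is used as a stain for senescent cells, was 1.75-fold and 1.52-fold higher (27.32, 28.13 and 27.92). Fuca1, which removes fucose, was 1.77-fold and 1.67-fold higher (27.52, 28.34 and 28.26). These 3 genes had nearly the same course, with day 14 highest and day 28 above day 6. Neu1, the sialidase, was 1.38-fold higher at day 14 and 1.90-fold at day 28 (25.94, 26.40 and 26.87). Manba, a beta-mannosidase, was higher by log2 differences of 0.50 and 0.58 (26.82, 27.32 and 27.40). Both had their highest value at day 28.

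Gusb and Gla differed from this pattern. Gusb, the beta-glucuronidase, had 27.72, 28.00 and 27.67, so its log2 difference from day 6 was 0.28 at day 14 and -0.05 at day 28. Its second probe set gave -0.18 and -0.72. Gla, the alpha-galactosidase that degrades globotriaosylceramide, had 26.83, 26.32 and 26.19, 1.42-fold lower at day 14 and 1.56-fold lower at day 28. Its second probe set above background was lower too (log2 differences of -0.70 and -0.57). Taken by substrate, the 9 members that break down glycosaminoglycans (Sgsh, Ids, Idua, Naglu, Gusb, Galns, Arsb, Hexa and Glb1) had a median of 0.81 at day 14 and 0.62 at day 28, with 9 of 9 and then 8 of 9 above day 6.

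**Figure D2:**
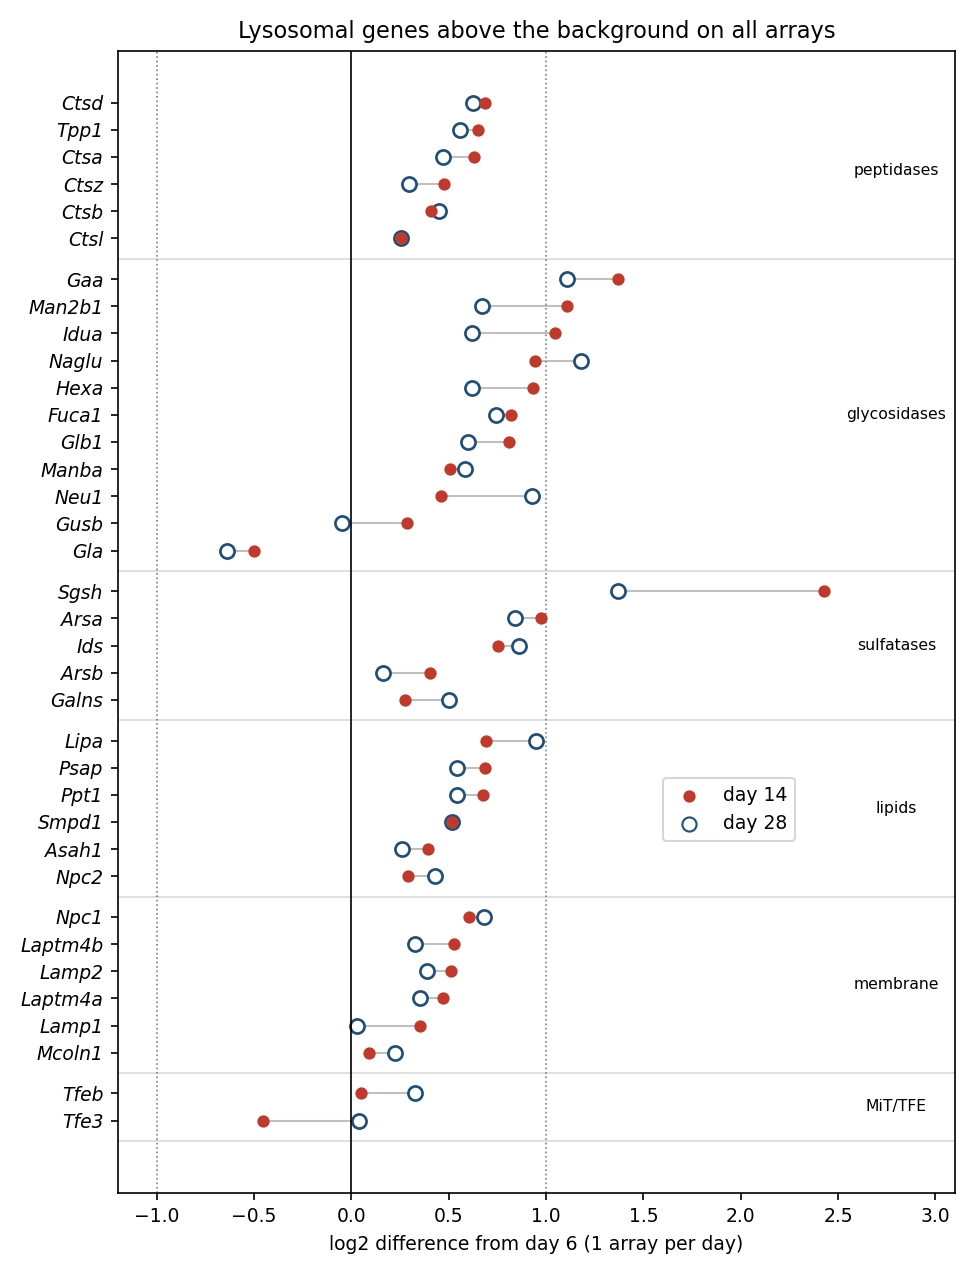
Log2 difference from day 6 (x axis) for each lysosomal gene above background on all 3 arrays, grouped by role, with day 14 as filled and day 28 as open points, each from 1 array. Dotted lines mark 2-fold. Sgsh lies farthest right at day 14 (2.43) and Gla is the gene farthest left at both days (-0.50 and -0.64).

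Peptidases showed smaller differences. All 6 of those above background were higher at both later days, with medians of 0.55 and 0.46. Ctsd, the aspartic protease cathepsin D, had 29.08, 29.76 and 29.71, 1.61-fold and 1.54-fold above day 6. Tpp1, a tripeptidyl peptidase, had 28.76, 29.41 and 29.32, 1.57-fold and 1.47-fold. Ctsa, the carboxypeptidase that protects beta-galactosidase and sialidase, had 28.66, 29.29 and 29.13, 1.55-fold and 1.39-fold. In these 3 genes day 14 and day 28 were close to each other and above day 6. The cysteine cathepsins followed with smaller folds. Ctsz was 1.39-fold and 1.23-fold higher (29.45, 29.92 and 29.74), Ctsb 1.33-fold and 1.36-fold (29.57, 29.98 and 30.02), and Ctsl 1.19-fold at both days (29.86, 30.12 and 30.12).

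The remaining 3 cathepsins were below background on every array, so they were given no difference. Ctss, a cathepsin of antigen-presenting cells, was at 20.94, 20.37 and 20.16. Ctsk, the collagen-degrading cathepsin of osteoclasts, was at 21.26, 20.56 and 20.56. Ctsh, an aminopeptidase, was at 19.83, 20.51 and 20.56.

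All 6 genes of lipid breakdown were higher at both later days, with medians of 0.60 and 0.53. Lipa, which hydrolyses cholesteryl esters and triglycerides, had 26.82, 27.51 and 27.77, 1.61-fold and then 1.93-fold above day 6. Psap, the precursor of the saposin activators, had 29.25, 29.94 and 29.79, 1.61-fold and 1.46-fold. Ppt1, a thioesterase that removes palmitate from proteins, had 27.27, 27.94 and 27.81, with log2 differences from day 6 of 0.68 and 0.54. Of these, Psap and Ppt1 were highest at day 14 and Lipa at day 28, although 1 of the 3 Lipa probe sets was highest at day 14. Smpd1, the acid sphingomyelinase, was 1.43-fold higher at both days (26.61, 27.12 and 27.12). Asah1, the acid ceramidase, was 1.31-fold and 1.20-fold higher (29.04, 29.43 and 29.30). Npc2, which carries cholesterol inside the lysosome, was 1.23-fold and 1.35-fold higher (29.43, 29.73 and 29.86).

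Of the 7 membrane genes measured, 6 were higher at day 14 and 6 at day 28, with medians of 0.47 and 0.32. Npc1, which receives cholesterol from NPC2, had 27.08, 27.68 and 27.76, 1.52-fold and 1.61-fold above day 6. Lamp2, a heavily glycosylated protein of the lysosomal membrane, had 29.07, 29.58 and 29.46, 1.42-fold and 1.31-fold. Lamp1, its relative, had 29.69, 30.04 and 29.72, 1.28-fold and 1.02-fold. Lamp1 was therefore close to its day 6 value by day 28, and with arrays set to equal hybridization controls it was below it (-0.09). The transmembrane genes Laptm4b and Laptm4a stayed closer to Lamp2. Laptm4b was 1.44-fold and 1.25-fold higher (29.25, 29.78 and 29.58), and Laptm4a 1.38-fold and 1.28-fold (29.41, 29.88 and 29.76). Mcoln1, the calcium channel of the lysosome, was 1.07-fold and 1.17-fold higher (26.53, 26.63 and 26.76), but its other probe sets were lower at day 14 (log2 differences of -0.11 and -0.32), so its direction there depends on the probe set. Cln3, a membrane protein whose loss causes a form of Batten disease, was above background at day 6 alone (23.04, 22.48 and 22.64). Set against the background of the later array, it was at a log2 difference of -0.47 at day 14 and -0.28 at day 28, which are bounds.

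The transcription factors of the list did not share the course of the hydrolases. Tfeb was at 24.16, 24.20 and 24.48, with log2 differences from day 6 of 0.05 at day 14 and 0.33 at day 28. Tfe3 was at 25.43, 24.98 and 25.47, 1.37-fold lower at day 14 than at day 6 and 1.40-fold higher at day 28 than at day 14. Of the related factors outside the list, Tfec was below background on every array. Mitf was at 23.67, 26.10 and 25.80, 5.40-fold higher at day 14 and 4.38-fold higher at day 28 than at day 6. Mitf had 2 probe sets, of which 1 was above background on all arrays, so its value rests on that one. These are levels of RNA, and the activity of TFEB and TFE3 is known to be set largely by their movement into the nucleus, which the arrays do not measure.

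**Figure D3:**
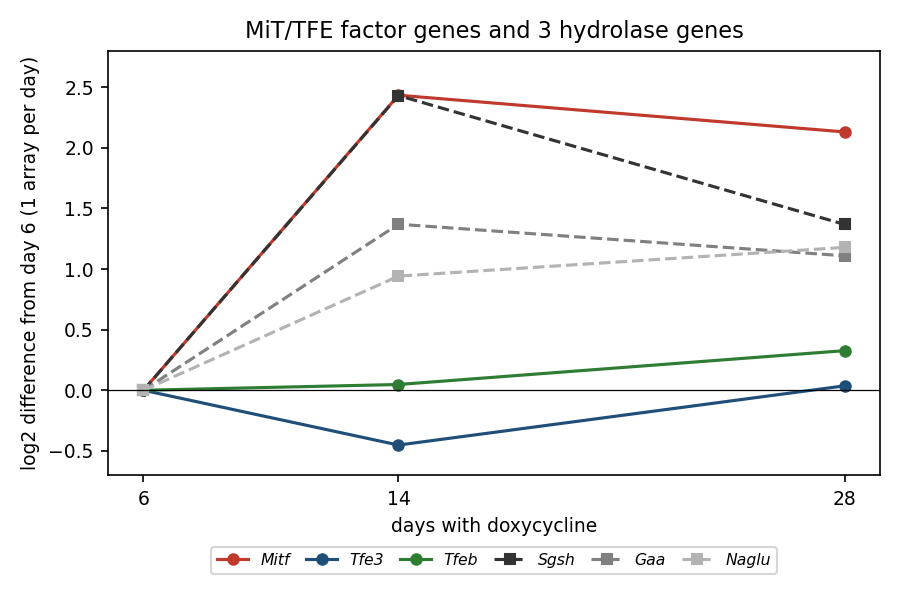
Log2 difference from day 6 (y axis) against days of doxycycline (x axis) for Mitf, Tfe3 and Tfeb (circles, full lines) and for the hydrolase genes Sgsh, Gaa and Naglu (squares, dashed lines), 1 array per day. Mitf and Sgsh both reach 2.43 at day 14, while Tfe3 is at -0.45 and Tfeb at 0.05.

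Several probe sets of 1 gene give the only measure of error in these arrays. It covers disagreement between probe sets on the same arrays. Errors shared by the probe sets of an array and differences between cultures are not part of it. Over 4838 genes with at least 2 probe sets above background, probe sets of the same gene scattered in their log2 differences with an SD of 0.30 (day 14 against day 6), 0.32 (day 28 against day 6) and 0.24 (day 28 against day 14). At day 14, 28 of the 36 members above background on all arrays were higher than at day 6 by more than this SD, 2 were lower by more (Gla and Tfe3) and 6 lay within it. Of all 10779 genes above background on all arrays, 24.8% were higher and 29.6% lower by more than this SD. At day 28, 27 of the 36 members were higher than at day 6 by more than the SD, against 26.6% of all genes, and 1 was lower, against 24.4%. From day 14 to day 28, 4 members were higher by more, against 24.6%, and 7 were lower, against 16.7%, while 25 lay within the SD.

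Probe sets of the same member mostly had the same sign. Of 70 member probe sets above background on all arrays, 62 were higher at day 14 than at day 6 and 61 at day 28, with medians of 0.52 and 0.48. Among 20 members with at least 2 such probe sets, all of a gene's probe sets were higher in 15 at day 14, all lower in 1, and mixed in 4 (Arsb, Gusb, Mcoln1 and Npc2). At day 28 they were all higher in 14, all lower in 2, and mixed in 4 (Arsb, Mcoln1, Npc2 and Ppt1). The widest disagreement in size was that of Ctsb at day 28, whose 5 probe sets, from the brightest to the dimmest, gave log2 differences of 0.45, 0.51, 1.27, 1.52 and 0.09. For Tpp1 the brighter probe set gave 0.56 and the dimmer 0.90, and for Ctsl 0.25 and 0.75.

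Many members lay near the top of the scale, whose highest value was 30.6. The 14 members whose probe set was within 2 log2 units of it at day 6 had a median difference of 0.49 at day 14 and 0.41 at day 28. The 22 members farther from it and above background on all arrays had medians of 0.64 and 0.61. Whether bright probe sets understate differences was not tested.

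**Figure D4:**
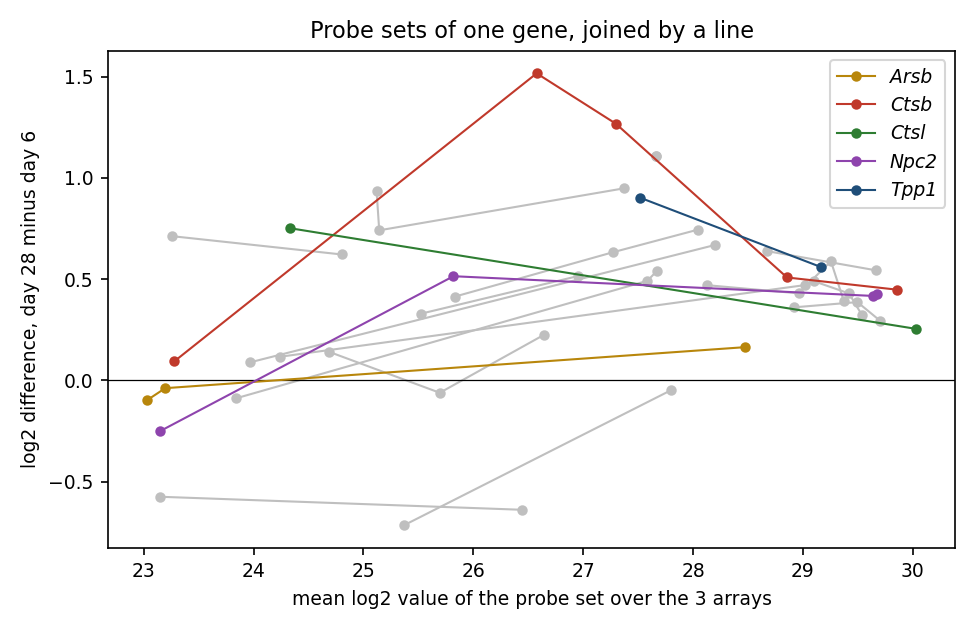
Log2 difference of day 28 against day 6 (y axis) against the mean log2 value over the 3 arrays (x axis) for each probe set above background on all arrays of the 20 members with at least 2, with probe sets of a gene joined by a line and 5 genes coloured. Ctsb spans 0.09 to 1.52, the widest range, and Gla lies below 0 with both probe sets.

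Other lysosomal genes were described for comparison, from lists that share no gene with the 41. Enzymes and activators outside the list were closest to it. Of 27 described at day 14, 25 were higher than at day 6, against 47.4% of all genes. At that day 7 were 2-fold higher, against 5.47%, and the median was 0.58. Of 26 at day 28, 21 were higher, against 50.7%, and 6 were 2-fold higher, against 6.59%, with a median of 0.64. Ctsf, cathepsin F, was at 24.12, 26.02 and 26.43, 3.72-fold and 4.95-fold above day 6. Naaa, which hydrolyses N-acylethanolamines, was at 24.61, 26.33 and 25.90, 3.31-fold and 2.46-fold. Ctso, cathepsin O, was at 25.63, 26.88 and 26.98, 2.38-fold and 2.55-fold. Ctsf and Ctso were highest at day 28 and Naaa at day 14.

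Genes that acidify lysosomes or bring cargo to them had smaller medians. Of all genes, 47.4% were higher at day 14 and 50.7% at day 28, and 5.47% and 6.59% were 2-fold higher. Of 19 subunits of the V-ATPase, the proton pump, 15 were higher at day 14 and 15 at day 28, with medians of 0.36 and 0.16, and Atp6v0e2 alone was 2-fold higher (26.78, 27.90 and 27.87). Of 34 sorting genes, 22 and 23 were higher, with medians of 0.15 and 0.20. Sort1, a receptor that sorts hydrolases, was 2.66-fold higher at day 14 and 2.20-fold at day 28. Igf2r, the receptor for mannose 6-phosphate, was 2.24-fold higher at day 28. Rab7b was 2.29-fold and Sorl1 2.21-fold higher at that day, with Sorl1 below background at day 6. At least 2-fold higher were thus 1 of the 34 sorting genes at day 14 and 4 at day 28, against 5.47% and 6.59% of all genes. Of 34 autophagy genes, 22 were higher at either day, with medians of 0.26 and 0.22, and none was 2-fold higher at day 14. At day 28, 2 of the 34 were 2-fold higher, against 6.59% of all genes. These were Map1lc3a, which codes for an autophagosome protein, at 2.21-fold, and Calcoco1, a cargo receptor gene, at 2.02-fold. Other membrane proteins and transporters had a median of 0.27 at both days, with 22 of 33 and 23 of 32 higher.

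Genes of mTORC1 control at the lysosome showed no common direction. Of 27, 13 were higher at day 14 and 15 at day 28, against 47.4% and 50.7% of all genes, with medians of -0.06 and 0.13. Single genes of this list differed widely. At least 2-fold higher were 2 of the 27 at day 14, against 5.47% of all genes, and 4 at day 28, against 6.59%. At least 2-fold lower was 1 at day 14, against 3.90%, and none at day 28, against 4.03%. Deptor, an inhibitor of mTOR, was 3.18-fold and 3.60-fold above day 6. The sestrins, stress-induced inhibitors of mTORC1, went different ways. Sesn2 was 2.79-fold lower at day 14, while Sesn3 was 3.04-fold higher at day 14 and 3.28-fold at day 28. Of the 2 Sesn3 probe sets, the other gave log2 differences of -0.05 and 0.33. Sesn1, named after its values were seen, was 1.69-fold and 2.01-fold higher. Rragd, a GTPase that recruits mTORC1, was 2.82-fold higher at day 28. Cathepsin inhibitors were above background in 4 of the 7 genes measured, with medians of 0.15 and 0.12, and none was 2-fold different.

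**Figure D5:**
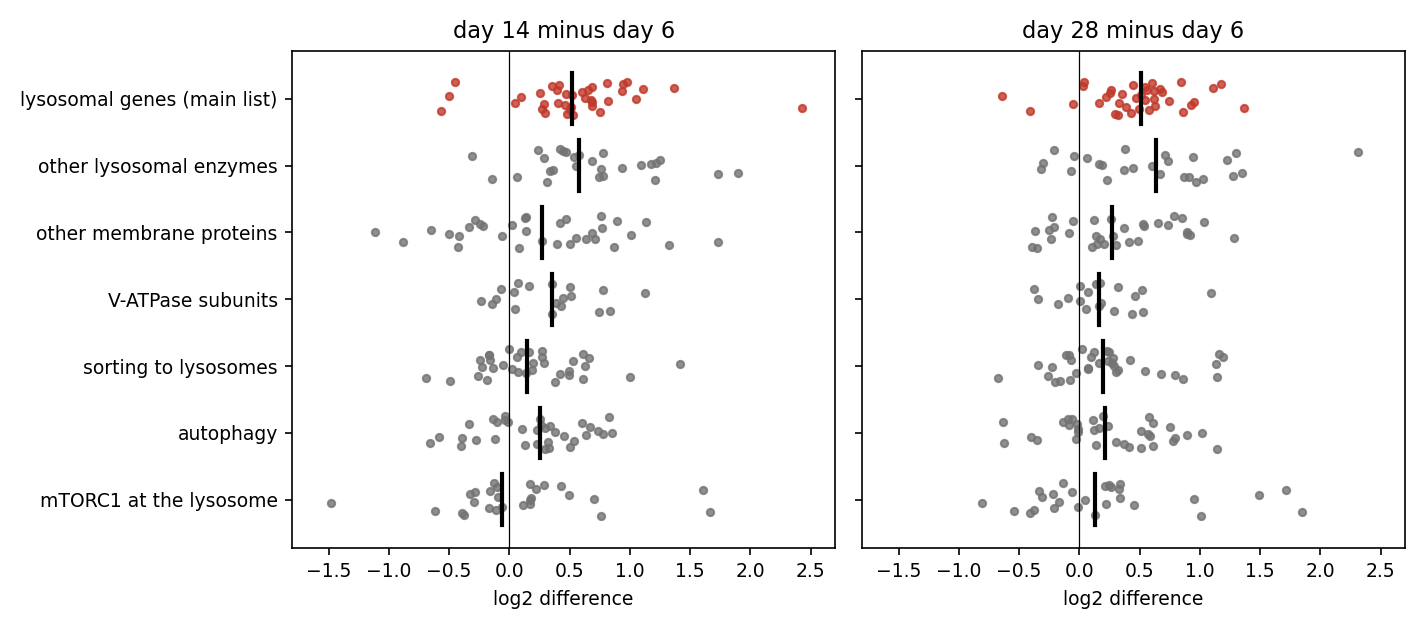
Log2 differences from day 6 at day 14 (left) and day 28 (right) on the x axis for the lysosomal genes in red and 6 other lists in grey, 1 point per gene and a black bar at each list's median. The medians of the red list are 0.52 and 0.51, those of the other lysosomal enzymes 0.58 and 0.64, and those of mTORC1 genes -0.06 and 0.13.

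Markers of other cells were read beside the members, since macrophages are rich in lysosomes. Of 18 macrophage and leukocyte markers, 7, 7 and 6 were above background at days 6, 14 and 28, and 10 were below it on every array, among them Ptprc, Itgam, Aif1, Tyrobp and Spi1. The markers Csf1r (24.36, 24.32 and 24.04) and Adgre1 (23.62, 23.35 and 23.49) were above it on all 3 arrays. Neither was higher at a later day than at day 6. The median level of this list was 22.18, 22.19 and 22.13, below the background of each array. Lyz2, lysozyme, was higher than at day 6 on both later arrays, at 24.57, 27.17 and 27.31. Cd74, the invariant chain, was too, at 23.66, 24.10 and 24.81. Cd68, which codes for a lysosomal membrane protein of macrophages, was lower at day 14 and 1.86-fold higher at day 28, at 25.09, 23.98 and 25.99. Of 12 fibroblast markers 7, 6 and 7 were above background, with a median level of 22.94, 22.54 and 22.95, and of 8 keratinocyte markers 4, 5 and 4, with 22.88, 23.11 and 23.01. Of the 8 fibroblast markers described at day 14, 4 were at least 1.5-fold higher than at day 6, against 13.5% of all genes. In the other direction, 1 was 1.5-fold lower, against 14.3%. The median log2 difference of these markers was 0.53, beside 0.08 at day 28. At day 28, 3 of the 8 described were at least 2-fold higher than at day 6, against 6.59% of all genes. None was 2-fold lower, against 4.03%. The 3 higher ones were Pdgfra, Ogn and Dcn. Dcn was at 21.92, 22.61 and 23.05, and its day 6 value was below background. Ogn, a small proteoglycan, was at 24.29, 27.47 and 25.59, with day 14 highest as in most members. Col3a1, a collagen gene, was 2.08-fold higher at day 14, Pdgfrb, a growth factor receptor, 1.90-fold at day 14, and Pdgfra, its relative, 3.06-fold at day 28. Col1a1 was lower at day 14 than at day 6 (log2 difference of -0.58). So were Col1a2 (-0.53) and Fap (-0.66), both below background at day 14. The fibroblast markers Thy1, Lum, Twist2 and Prrx1 were below background on every array. Cdh1, the epithelial cadherin, was above background at day 14 alone (21.89, 24.36 and 22.70). The part of these markers in the values of the lysosomal genes was not tested.

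Most markers of melanocytes were also higher at day 14 than at day 6. Of 15 described, 14 were higher, against 47.4% of all genes, with a median log2 difference of 1.39. At day 28, 10 of 13 were higher than at day 6, against 50.7%, with a median of 0.87. From day 14 to day 28 the median was -0.52. Dct, an enzyme of melanin synthesis, was at 23.83, 29.17 and 28.03, and Mlana, a melanosome protein, at 24.25, 29.08 and 28.38. Tyrp1 was at 27.58, 29.67 and 27.47, so it was below its day 6 value at day 28. Pax3 differed little between days (27.49, 27.55 and 27.58). Ednrb was above background at day 6 alone (23.28, 21.83 and 22.50). The part of these marker differences in the values of the lysosomal genes was not tested.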

How the data were processed

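RNA of 3 cultures was measured on 1 Affymetrix array each. The authors deposited log2 values per probe set (45101 in all, 64 of them controls), already quantile normalized, since the 3 columns hold identical values once sorted. Summarization and log base are not given in the sources used here. Base 2 was inferred from hybridization controls, with slopes of 0.788 to 0.805 per log2 of concentration. These slopes alone do not fix the base, and all folds assume base 2. The values run from 1.46 to 30.6, so a constant may have been added, which cancels in differences if so.

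Gene names came from the platform's annotation, brought up to date with RefSeq (GRCm38.p6). A single gene was named for 34958 probe sets and several for 932, and 9211 were not listed. Genes above background on at least 1 of 2 arrays were described. The replicate number of each array is only a name, and with 1 array per day no p-value or SD between cultures exists. Members, lists and alternatives were chosen with earlier results of these data known. All members were named, and of each other list up to 3 genes per direction and comparison among those at least 2-fold apart. Steps used Python 3.11.15, numpy 2.4.6 and pandas 2.3.3 and were tested on simulated data.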

Additional observations from a re-analysis of the deposited data

How the results depend on the processing

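Across the alternatives, which changed the scaling, the background, the choice of probe set and how dim values were handled, the median difference of the lysosomal genes ran from 0.44 to 0.73 at day 14 against day 6, from 0.40 to 0.76 at day 28 against day 6 and from -0.15 to -0.09 at day 28 against day 14, and none changed sign. Counts moved more. Members 2-fold higher at day 14 were 4 as reported, 2 with the mean of all probe sets (all genes 4.61%), 9 with equal medians of the reference genes (8.57%) and 17 at 1.5-fold (13.5%). At day 28 against day 6 they were 3 as reported, 7 with equal reference genes (11.1%) and 14 at 1.5-fold (15.8%), and members lower were 0 as reported and 1 at 1.5-fold. The 3 as reported lost Sgsh with the mean of all probe sets and Gaa, by a small margin, with equal hybridization controls. Members lower at day 28 against day 14 were 1 as reported and 0 with the mean of all probe sets. The reference genes include Gusb, and their equal medians moved the median of all genes to 0.18 at day 14 and 0.26 at day 28, and equal hybridization controls moved it to -0.11 at both. With equal reference genes, 1.83% of all genes were 2-fold lower at day 14 and 2.11% at day 28. With equal hybridization controls, 4.73% were higher and 5.23% lower at day 14, and 5.37% and 5.47% at day 28. Of 736 values of single members under the alternatives, 719 stayed within the probe-set SD, and 17 moved by more. With equal hybridization controls, members higher than day 6 by any amount were 33 of 37 at day 14 and 32 of 37 at day 28. Lamp1 (-0.09) and Tfe3 (-0.08) then turned lower at day 28 and Tfeb (-0.03) at day 14, and with equal reference genes Gusb (0.20) turned higher at day 28. Mcoln1 turned lower at day 14 with the mean of all probe sets (-0.11) and with plain _at probe sets (-0.32). From day 14 to day 28, Gla (0.11) and Smpd1 (0.08) turned higher with the mean of all probe sets, Smpd1 (0.03) also with equal reference genes, and Lipa (-0.27) turned lower with plain _at probe sets. No paired analysis was possible because each day had 1 array. Signal over background limits the dim members, and 1 array per day limits every comparison.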

Other observations

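Genes with a course like that of Sgsh, the member with the widest range, were looked for among 10779 genes above background on all arrays, by the root mean square distance between centred log2 values over the 3 arrays. The nearest 5 were Cdh19, Epb41l4b, Plekhg1, Sntb1 and Plekha4. Cdh19, a cadherin gene, was at 25.62, 28.20 and 27.11 at days 6, 14 and 28, at a distance of 0.065. Epb41l4b was at 23.87, 26.16 and 25.28, at a distance of 0.079. With 3 arrays such a likeness is a description of 3 values per gene.

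Gpr143, which codes for a receptor of the melanosome membrane, was at 23.64, 25.37 and 24.06, 3.31-fold higher at day 14 than at day 6 and 2.48-fold lower at day 28 than at day 14. Gm2a, the activator that presents ganglioside GM2 to beta-hexosaminidase, was 2.32-fold higher at day 14 and 2.42-fold at day 28 than at day 6.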
